A study of Mus musculus with 2 samples.

Results

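The ErbB receptors and the growth factors of the EGF family that bind EGFR were described in adult mouse bladder. The 10 genes were chosen by symbol, 4 receptors (Egfr, Erbb2, Erbb3 and Erbb4) and 6 ligands (Areg, Ereg, Hbegf, Tgfa, Btc and Egf), and all 10 were found among the 43346 Ensembl genes of the deposited tables. The study holds 1 group, whole urinary bladder of C57BL/6J mice aged 8 weeks, in 2 libraries whose labels number them biological replicate 1 and 2. The labels describe littermates of both sexes, list no treatment or mutant allele, give both libraries the same donor entry, and do not state how many animals each library pools. RNA was polyadenylated, depleted of ribosomal RNA and over 200 nucleotides long, and the libraries were stranded. Levels are given in TPM, a transcript abundance scaled for length and library size, with n = 2 throughout. The SD is the spread between these libraries, which may be partly technical.

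ErbB receptors are cell-surface tyrosine kinases that act in pairs. EGFR and ERBB4 bind ligands and have an active kinase, ERBB2 has a kinase and no known ligand of its own, and ERBB3 binds neuregulins but has little kinase activity. EGF family ligands are made as membrane-bound precursors and cut free by ADAM proteases, and in the bladder EGFR signalling is known for its part in urothelial growth and repair.

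The libraries held 99367453 (replicate 1) and 105057347 (replicate 2) estimated fragments on genes, and the floor that a count of 0 allows, 3 counts, came to 0.0302 and 0.0286 CPM (counts over the total on genes), for counting error only. Bladder markers were present: the umbrella cell list (6 of 6 detected) summed to 3921 TPM (replicate 1) and 5602 TPM (replicate 2), the basal urothelium list (4 of 5) to 1371 and 1434 TPM, and the smooth muscle list (6 of 6) to 27456 and 25032 TPM. No kidney tubule (0 of 5) or male accessory gland gene (0 of 5) reached 1 TPM. The fibroblast (5 of 5), endothelium (4 of 4), macrophage (5 of 5), mast cell (4 of 5), nerve and glia (5 of 5) and skeletal muscle (2 of 5) lists were also examined.

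Of the 10 genes, 7 reached 1 TPM in both libraries, as did 14191 of all 43346 genes, and Erbb2 and Erbb3 were the highest of the 7. Erbb2 (ENSMUSG00000062312.5, mm10 chromosome 11, 98412470 to 98437716, plus strand), the co-receptor without a ligand, had 20.64 TPM in replicate 1 and 21.98 TPM in replicate 2, a mean of 21.3 ± 0.9 TPM (SD, n = 2) from 7511 and 8627 counts. Erbb3 (ENSMUSG00000018166.8, chromosome 10, 128567523 to 128589652, minus strand), the neuregulin receptor, had 17.52 and 20.32 TPM, from 7848 and 10039 counts. Erbb2 exceeded Erbb3 in both libraries, by a log2 ratio of 0.17 ± 0.08 (pseudocount 0.5 TPM), just over 2 SD. This level of Erbb2 includes a transcript with no annotated protein. The full receptor transcript, Erbb2-201, had 18.5 and 18.84 TPM alone, above Erbb3 in replicate 1 and below it in replicate 2. In counts, Erbb3 was the higher in both libraries. The mean TPM of Erbb2 and Erbb3 lay above those of 61.7% and 58.2% of the 14533 genes averaging 1 TPM or more.

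Egfr (ENSMUSG00000020122.12, chromosome 11, 16752203 to 16918158, plus strand), the receptor for the 6 ligands, had 7.27 TPM in replicate 1 and 6.80 TPM in replicate 2, from 4620 and 4548 counts. It made up 15.99% and 13.8% of receptor TPM, against 83.9% and 86.1% for Erbb2 and Erbb3 together. Erbb4 (ENSMUSG00000062209.11, chromosome 1, 68032186 to 69108059, minus strand), a second neuregulin receptor that also binds some EGFR ligands, stood at 0.05 and 0.03 TPM from 44 and 35 counts. Its level was therefore above the floor of 3 counts and under 1 TPM in both libraries. In bulk tissue, fewer cells of a type and less RNA per cell cannot be told apart, here and for every level below.

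Among the ligands Tgfa was the highest and Hbegf second, and 4 ligands lay near or under 2 TPM. Tgfa (ENSMUSG00000029999.10, chromosome 6, 86195223 to 86275719, plus strand), which encodes transforming growth factor alpha, had 14.52 TPM in replicate 1 and 11.36 TPM in replicate 2, from 3249 and 3091 counts. It held 64.5% and 53.0% of the summed ligand TPM. Hbegf (ENSMUSG00000024486.5, chromosome 18, 36504927 to 36515805, minus strand), the heparin-binding ligand, had 4.16 and 4.12 TPM, from 697 and 757 counts. Tgfa exceeded Egfr by 0.83 ± 0.18 and Egfr exceeded Hbegf by 0.70 ± 0.05 on the log2 scale, both beyond 2 SD. In the authors' mm9 RPKM the log2 ratio of Tgfa to Egfr was 0.35.

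Ereg (epiregulin, ENSMUSG00000029377.4, chromosome 5, 91074622 to 91093646, plus strand) had 1.20 TPM in replicate 1 and 2.14 TPM in replicate 2, from 365 and 715 counts. Areg (amphiregulin, ENSMUSG00000029378.4, chromosome 5, 91139599 to 91148432, plus strand) had 0.95 and 1.76 TPM, from 73 and 148 counts. Both were higher in replicate 2, and Areg reached 1 TPM only there. Btc (betacellulin, ENSMUSG00000082361.3, chromosome 5, 91357261 to 91402994, minus strand) had 1.19 and 1.49 TPM, from 246 and 338 counts. These 3 ligand genes are neighbours: Ereg lies 46.0 kb from Areg with 0 annotated genes between them, and Areg lies 209 kb from Btc with 2 genes between them. Egf (ENSMUSG00000028017.3, chromosome 3, 129677565 to 129755316, minus strand), the founding ligand, abundant in kidney and salivary gland, had 0.50 and 0.57 TPM, from 174 and 219 counts. Beside it, the 5 kidney tubule markers summed to 0.15 and 0.10 TPM, with Umod and Slc12a1 at 0 counts in both libraries.

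The order of mean levels was Erbb2, Erbb3, Tgfa, Egfr, Hbegf, Ereg, Areg, Btc, Egf and Erbb4. Of its 9 neighbouring pairs, 7 differed by more than 2 SD with the same sign in both libraries. The exceptions were Erbb3 over Tgfa, with a log2 ratio of 0.54 ± 0.39, and Areg over Btc, with -0.02 ± 0.29, where Areg was below Btc in replicate 1 and above it in replicate 2. For Ereg over Areg and Egf over Erbb4, both among the 7, the deposited credibility bounds overlapped in each library. The rule of 2 SD covers the spread between the libraries and not counting error, and it is weak at n = 2. Summed over genes, the ligands had 22.5 TPM in replicate 1 and 21.4 TPM in replicate 2, against 45.5 and 49.1 TPM for the receptors. The log2 ratio of ligands to receptors was -1.01 in replicate 1 and -1.20 in replicate 2.

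**Figure D1:**
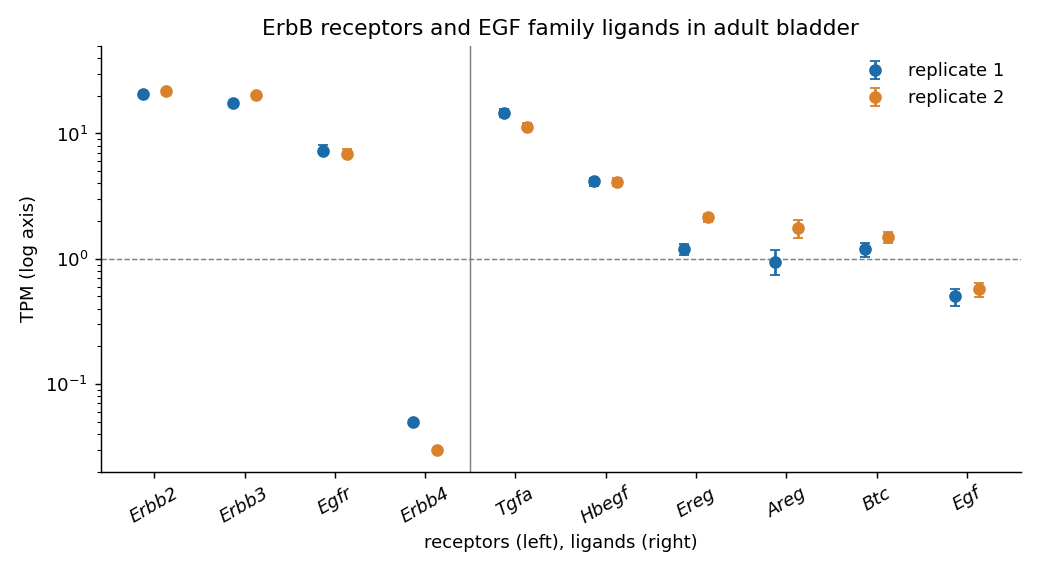
TPM of the 4 receptors and 6 ligands on a log axis, 1 point per library; bars are the deposited credibility bounds (left out for Erbb4, whose bounds reach 0.982 and 1.21 TPM) and the dashed line marks 1 TPM. Erbb2, Erbb3, Tgfa, Egfr and Hbegf lie above 4 TPM in both libraries and Egf and Erbb4 below 1 TPM in both.

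Between the libraries, Ereg and Areg were the genes of the set that differed most. With the pseudocount of 0.5 TPM, 8 of the 10 genes differed by less than 1.5-fold. Erbb4 is among them only through the pseudocount: without it, its TPM ratio of replicate 2 over replicate 1 was 0.60, on 44 and 35 counts. None of the 10 passed a 2-fold difference (log2 of TPM + 0.5, replicate 1 over replicate 2), where 1.58% of all genes averaging 1 TPM or more did. That filter on the mean was met by 8 of the 10, all but Egf and Erbb4. At 1.5-fold and higher in replicate 2, 2 of these 8 passed, where 3.99% of all those genes did. That share counts only the direction in which Ereg and Areg lay, and it is not matched for level. Ereg and Areg averaged 1.67 and 1.355 TPM, against a median of 14.4 TPM over those genes. The log2 ratio was -0.64 for Ereg and -0.64 for Areg, against a median of -0.08 and a 5th to 95th percentile range of -0.54 to 0.56 over all those genes. In CPM, with 95% exact binomial intervals that cover counting error only, the log2 ratio was -0.89 (-1.08 to -0.71) for Ereg and -0.94 (-1.36 to -0.53) for Areg. The deposited credibility bounds of their TPM also did not overlap: for Ereg they were 1.08 to 1.32 in replicate 1 and 1.97 to 2.28 in replicate 2, and for Areg 0.738 to 1.17 and 1.48 to 2.05. With 1 library on each side there is no test of this difference.

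Ratios between these libraries varied with transcript length, which is therefore given beside them. Areg has 1199 nucleotides, and genes under 2000 nucleotides had a median log2 ratio of -0.20, with 7.54% of 5885 past 1.5-fold and higher in replicate 2. Ereg has 4136 nucleotides, and genes of 4000 to 6000 nucleotides had a median of 0.07, with 0.691% of 2027 past that fold. Btc (2876 nucleotides) had -0.24, and Hbegf (2373 nucleotides) had 0.01. Tgfa (3105 nucleotides in replicate 1 and 3408 in replicate 2, weighted over its transcripts) had 0.34, and genes of 2000 to 4000 nucleotides had a median of -0.07. Egf (4757 nucleotides) had -0.10 and Erbb2 (4924 and 4823 nucleotides) had -0.09. The longest were Erbb3 (6016 nucleotides) at -0.21, Egfr (8450 and 8066 nucleotides) at 0.09 and Erbb4 (12037 nucleotides) at 0.05, which the pseudocount sets on its 44 and 35 counts. Genes of 6000 nucleotides or more had a median of 0.15.

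Markers of some cell types moved with Ereg and Areg. All 6 umbrella cell genes were higher in replicate 2, as were all 5 adipocyte genes (642 TPM in replicate 1 and 1223 TPM in replicate 2, summed), all 4 mesothelium genes (131 and 197 TPM), of which Upk3b is also on the umbrella cell list, and all 5 nerve and glia genes (371 and 595 TPM). None of these markers was at 0. The median log2 ratios of these lists were -0.51 (umbrella cell), -1.23 (adipocyte), -0.71 (mesothelium) and -0.34 (nerve and glia). The median over all genes averaging 1 TPM or more was -0.08, itself on the side of replicate 2. Genes under 2000 nucleotides had a median of -0.20. Upk1a (1308 nucleotides in replicate 1), Upk2 (873) and Fabp4 (947) are that short, while Upk3b (2346) and Lep (3259) are longer. Of the basal urothelium and macrophage genes, 4 of 5 each were also higher in replicate 2, with medians of -0.03 and -0.10. Fewer were higher there among fibroblast (2 of 5), mast cell (1 of 5), skeletal muscle (1 of 5), endothelium (0 of 4) and smooth muscle genes (0 of 6). Among the smooth muscle genes, Myh11 has 6632 nucleotides and Actg2 1308. The part of these cell types in the Ereg and Areg difference was not tested, nor was that of transcript length in the marker ratios.

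**Figure D2:**
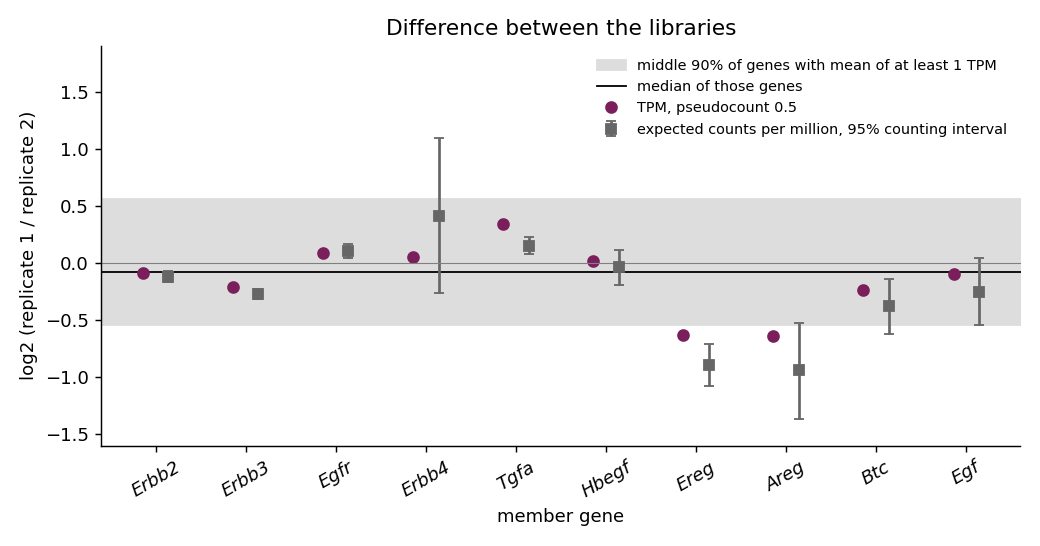
Log2 ratio of replicate 1 over replicate 2 for each gene, in TPM with a pseudocount of 0.5 (circles) and in CPM with 95% exact binomial intervals (squares). The band spans the 5th to 95th percentile of the TPM ratios of genes averaging 1 TPM or more, so it is a measure for the circles and not for the squares. In TPM only Ereg and Areg, at -0.64 each, lie outside the band of -0.54 to 0.56.

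The region upstream of Areg is shown because Areg varied between the libraries and, of the windows searched, it held the most kinds of motif. The 250 bases before its start (RefSeq, GRCm38.p6, chr5:91139349-91139598, plus strand) read as follows, with motif matches in capitals.
Areg: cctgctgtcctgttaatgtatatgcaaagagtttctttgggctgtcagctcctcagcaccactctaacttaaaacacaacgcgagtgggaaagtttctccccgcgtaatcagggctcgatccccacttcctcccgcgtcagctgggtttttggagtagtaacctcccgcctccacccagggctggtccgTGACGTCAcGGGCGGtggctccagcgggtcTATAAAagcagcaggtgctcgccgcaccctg
The capitals mark, in order, TGACGTCA (the cAMP response element), GGGCGG (the GC box) and TATAAA (the TATA box), which begin 61, 52 and 31 bases before the start and do not overlap. On either strand, 1.55% of 32851 promoter windows of this length hold TGACGTCA, 32.7% hold GGGCGG and 12.4% hold TATAAA. Windows matched for 7 of the 10 genes. None was available for Ereg, Erbb3 and Hbegf, so Ereg, which varied between the libraries as Areg did, was not searched. Among the 7 genes with a window, TGACGTCA and TATAAA were found for Areg alone, and GGGCGG for Egfr and Tgfa as well. The AP-1 site, TGAGTCA or TGACTCA, was in none of the 7 and in 4.46% of all windows, and CCAAT was in that of Erbb2 and in 33.8% of all windows. A match is a description of the letters only.

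Transcript forms could be compared for the 4 genes with more than 1 quantified transcript, Egfr, Erbb2, Erbb4 and Tgfa, and in each of them 1 transcript held over 50% of TPM in both libraries. Names and protein lengths are those of GENCODE M21. Egfr-201, the full receptor of 1210 residues, held 76.9% of Egfr TPM in replicate 1 and 72.9% in replicate 2. Egfr-202, a short form of 655 residues that lacks the membrane-spanning and kinase parts, held 19.5% and 19.3%, or 1.41 and 1.31 TPM, from 299 and 305 counts. Because Egfr-201 is 10208 and Egfr-202 2943 nucleotides long, the short form held only 6.47% and 6.70% of Egfr counts.

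The forms share 15 exons and part in exon 16, where the short form reads on past the splice donor. It shares 1925 coding bases with the full receptor and then has 43 of its own, stop codon included. The coding sequences at that point are shown to mark the difference (GENCODE M21, mm10, chromosome 11, plus strand, Egfr-202 at 16887171 to 16887228), with the last 15 shared bases in lower case and the bases of each form in capitals.
Egfr-202: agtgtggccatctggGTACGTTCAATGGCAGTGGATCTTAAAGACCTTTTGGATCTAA
Egfr-201: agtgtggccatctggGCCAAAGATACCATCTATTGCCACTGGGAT
In the authors' junction table, which sums reads over both libraries on mm9, 176 reads joined exons 15 and 16, used by both forms. The junction of exons 16 and 17, used by the full receptor, had 156 reads, and that of exons 17 and 18 had 107. Reads per Egfr junction ranged from 73 to 212 along the gene, so the step at exon 16 lay within the range of its other junctions.

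Erbb2-201, the full receptor of 1256 residues, held 89.6% of Erbb2 TPM in replicate 1 and 85.7% in replicate 2. Erbb2-202, a transcript with no annotated protein, held 9.73% and 11.7%. Erbb3 had 1 quantified transcript, of 1339 residues. All counts of Erbb4 went to Erbb4-202 (1292 residues), but with 15 junction reads on 9 of its 26 introns its forms were not resolved: the 48-base cytoplasmic exon that Erbb4-202 lacks had 0 reads, and the alternative juxtamembrane exons of 75 and 45 bases had 0 each. Tgfa-201, of 159 residues, held 70.3% and 78.8% of Tgfa TPM. Tgfa-202 (98 residues, 410 nucleotides) held 27.3% and 19.9%, or 3.96 and 2.26 TPM, on 64.4 and 38 counts. It was 1.98% and 1.23% of Tgfa counts, and without it the leading Tgfa transcript stood at 10.2 and 8.96 TPM. Areg, Ereg, Hbegf, Btc and Egf had 1 quantified transcript each.

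**Figure D3:**
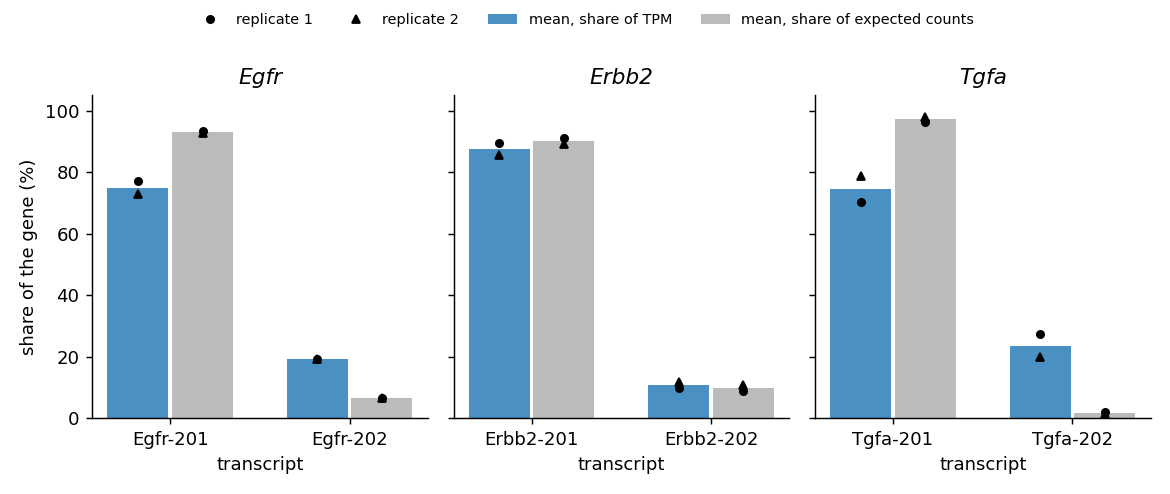
Share of each gene's TPM (blue) and expected counts (grey) taken by transcripts with a mean TPM share of at least 10%, as the mean of both libraries with 1 marker per library. Egfr-202 and Tgfa-202 take 19.3% and 23.6% of TPM but 6.59% and 1.61% of counts, whereas the shares of Erbb2-202 are 10.7% and 9.69%.

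In 9 of the 10 genes most junction reads lay on annotated junctions, and in Erbb4 most did not. Over the 10 genes, 28921 reads lay on annotated junctions and 299 on 176 others, 1.02% of reads (95% exact binomial interval 0.911 to 1.15, counting error only). The share was 3.73% over the whole table, which is not limited to junctions inside annotated genes on their strand, so the sets are unlike. Erbb2 and Erbb3, which held most of the reads, had 1.01% and 0.407%. Egf had 7.20% (interval 4.72 to 10.5) and Erbb4 69.4%. Erbb2 had 13674 annotated junction reads, Erbb3 9053, Egfr 4078, Tgfa 812, Hbegf 433, Egf 322, Ereg 185, Areg 184 and Btc 165. All 26 introns of Erbb2 and all 27 of Egfr had reads, as did 26 of 27 for Erbb3, 5 of 5 for Areg, Btc, Hbegf and Tgfa, 3 of 4 for Ereg and 18 of 23 for Egf. The empty introns lay at transcript ends. In Ereg it was the first intron, while exon 2 to exon 3 had 71 reads. In Egf no intron before that of exon 6 to exon 7, with 5 reads, had any. Junction reads thus did not cover the annotated starts of Ereg and Egf. In Erbb3 it was the last intron. Along Erbb2 the median was 404 reads in the first 13 introns and 704 in the rest.

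Of the 7 unannotated junctions with at least 5 reads, 4 were in Erbb2, and 3 of these skipped exon 12, exon 13 or both, which encode extracellular sequence. A junction from exon 11 to exon 14 had 25 reads (mm9 chromosome 11, intron 98288465 to 98289449), against 508 from exon 11 to exon 12, which is 4.69% of both (95% exact binomial interval 3.06 to 6.85). It leaves out 333 bases, a multiple of 3. Junctions from exon 11 to exon 13 (13 reads) and from exon 12 to exon 14 (10 reads) leave out 200 and 133 bases, which shift the frame. The exon joins are shown to tell these forms apart (Erbb2-201, mm10, chromosome 11, plus strand), with the last 15 bases of the upstream exon in lower case and the first 15 of the downstream exon in capitals.
exon 11 to exon 12: acggattctccatgaTGGTGCTTACTCATT
exon 11 to exon 13: acggattctccatgaGTCTTGAGGGCTTGG
exon 11 to exon 14: acggattctccatgaGCTCCCCAGGGAGTA
exon 12 to exon 13: cagaagaggcatgtgGTCTTGAGGGCTTGG
exon 12 to exon 14: cagaagaggcatgtgGCTCCCCAGGGAGTA

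A human ERBB2 form that lacks a small juxtamembrane exon is known from breast tumours. The mouse exon of 48 bases before the membrane-spanning part is exon 16 (mm10 chromosome 11, 98431717 to 98431764, plus strand), shown in full.
exon 16: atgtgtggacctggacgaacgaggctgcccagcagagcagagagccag
Reads joined exon 15 to exon 16 704 times and exon 16 to exon 17 437 times, and 0 reads joined exon 15 to exon 17, which allows up to 0.426% of the reads from exon 15. In Egf, a junction from exon 18 to exon 20 that leaves out 123 bases had 7 reads, against 17 from exon 18 to exon 19. Erbb4 had 34 reads on 34 unannotated junctions, 1 each, against 15 on annotated ones.

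**Figure D4:**
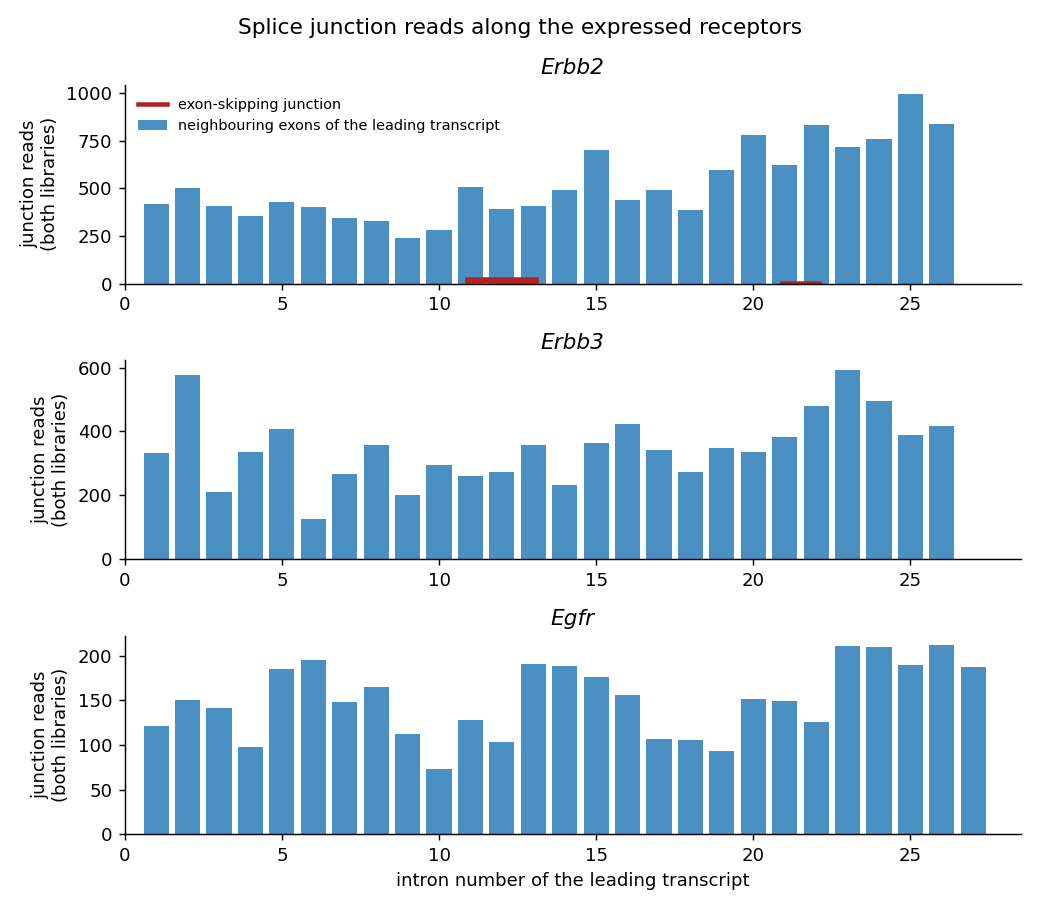
Reads on each exon-exon junction of the leading transcripts of Erbb2, Erbb3 and Egfr, summed over both libraries by the authors, by intron number; red lines span the introns crossed by junctions that skip exons, at the height of their reads. The skipping junctions of Erbb2 at exons 12 and 13 hold 10 to 25 reads beside 391 to 508 on the joins they replace.

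Most other pathway genes were detected, with a higher median level than the receptors and ligands. Of 63 other genes on the pathway lists, 58 reached 1 TPM in both libraries, as did 14191 of all 43346 genes. The 63 genes had a median of 19.8 TPM and the 10 receptors and ligands one of 2.91 TPM, genes under 1 TPM included. Over the 14533 genes averaging 1 TPM or more, a set that leaves lower genes out, the median was 14.4 TPM. Of the 5 further ErbB ligands, 2 were detected: Nrg2, a neuregulin, had 4.17 TPM in replicate 1 and 3.40 TPM in replicate 2. Nrg4, which binds ERBB4, had 1.35 and 2.11 TPM. Nrg1, the main ERBB3 ligand, had 0.55 and 0.47 TPM, Epgn (epigen) 0.08 and 0.09 TPM, and Nrg3 3 counts and 1 count.

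All 8 genes that shed ligands or regulate shedding were detected, with a median of 34.3 TPM. Timp3, an inhibitor of some of these proteases, led at 139 ± 3.1 TPM. It was followed by Rhbdf1, an inactive rhomboid that guides ADAM17 (58.4 ± 10.03 TPM), and the protease gene Adam9 (50.8 ± 1.8 TPM). Adam17, the main sheddase of Tgfa and Areg, had 20.0 and 19.9 TPM, and Adam10, a sheddase of Egf and Btc, had 44.5 and 43.4 TPM. Adam17 and Adam10 are named beyond the rule for the lists, after their values were seen.

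All 13 adaptors and proximal effectors were detected (median 29.1 TPM), led by the kinase gene Akt1 (109 ± 5.1 TPM), the transcription factor Stat3 (70.4 ± 2.5 TPM) and the adaptor Shc1 (63.0 ± 4.3 TPM). All 10 Ras-MAPK genes were detected (median 76.2 TPM), among them the kinase genes Mapk3 (152 ± 7.6 TPM) and Araf (104 ± 15.96 TPM). All 17 inhibitors and turnover genes were detected (median 9.29 TPM), led by the Ras pathway inhibitor Spry1 (26.4 ± 0.5 TPM), the phosphatase gene Ptpn1 (25.2 ± 1.0 TPM) and Errfi1, a direct inhibitor of the EGFR kinase (24.0 ± 4.4 TPM). Of the 10 MAPK response genes 8 were detected, led by Ccnd1 (62.4 ± 5.6 TPM), Phlda1 (49.2 ± 1.2 TPM) and Ier3 (47.0 ± 11.8 TPM). Fosl1 (0.06 and 0.02 TPM) and Etv4 (0.32 and 0.49 TPM) were under 1 TPM. Of the 66 genes on the 8 pathway lists that averaged 1 TPM or more, 1 passed 2-fold between the libraries, where 1.58% of all genes did. It was the immediate early gene Egr1, named for this after its values were seen, with 15.92 TPM in replicate 1 and 6.94 TPM in replicate 2. The median log2 ratios of the lists ran from -0.24 for the EGFR ligands to 0.03 for the adaptors, beside -0.08 for all genes.

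**Figure D5:**
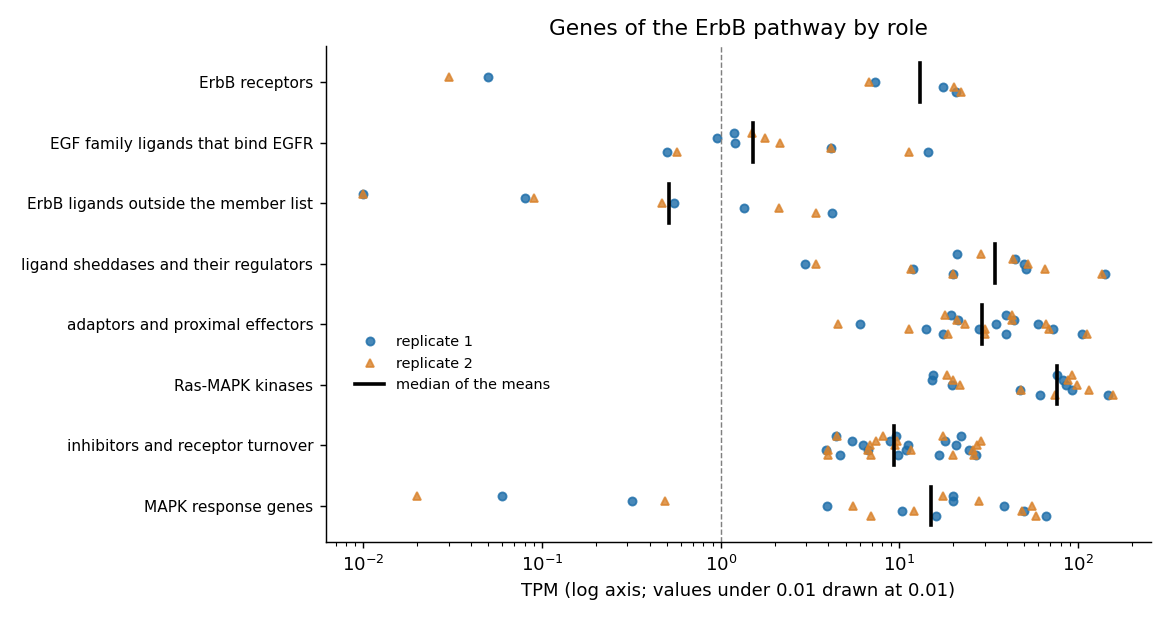
TPM of every gene on the 8 pathway lists on a log axis, 1 marker per gene and library, with the median of the gene means as a black bar; values under 0.01 are drawn at 0.01 and the dashed line marks 1 TPM. The medians of the ligand lists (1.51 and 0.51 TPM) lie below those of the sheddases (34.3 TPM) and the Ras-MAPK kinases (76.2 TPM).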

How the data were processed

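The authors deposited gene and transcript tables for each library on mm10 with GENCODE M4, per the description file that accompanies each sample. Expected counts (estimated fragments), TPM by maximum likelihood and as a posterior mean, credibility bounds of TPM (deposited as a score per gene), and the percent of each gene's TPM by transcript are given per the file headers. Splice junction read counts and RPKM on mm9 with Ensembl 65 were deposited by the authors for the whole series and are not tied to a replicate, so junction counts are their sums and the mean RPKM was used. The aligner, the counting tool, their versions and any use of strand in counting were not given in the sources used here.

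Rows other than Ensembl genes took 5.01% and 5.98% of expected counts and were left out of library sizes. Symbols and positions came from GENCODE M21 by identifier without version. Ratios used log2(TPM + 0.5), which understates those of low genes. Neighbours in the order of levels were told apart where the mean log2 ratio exceeded 2 SD with the same sign in both libraries. Expected counts were rounded for edgeR 4.0.16 (TMM) and DESeq2 1.42.0 size factors in R 4.3.3. Other steps used Python 3.11.15, pandas 2.3.3, numpy 2.4.6, scipy 1.17.1 and matplotlib 3.10.9, and the ratio step was tested on simulated data. Junctions were taken as annotated where the table marks them so, and exons were numbered along the leading transcript, whose exon lengths for Erbb2 were equal in mm9 and mm10. Motifs were searched in both strands of 250 upstream bases.

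No test was run, since there is 1 group. The named genes are the 10 members, the 3 highest of each list, list genes under 1 TPM in both libraries, and transcripts that average 10% or more of their gene; Adam10, Adam17 and Egr1 were added after their values were seen. A gene that this rule covers is not reported here, but the counts and medians of its list include it. Members and lists were chosen with earlier results of these data known.

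Erbb2 overlaps Mien1 (73.3 and 95.8 TPM) on the opposite strand by 9 bases, and Egfr contains the antisense gene Egfros (0.72 TPM in each library).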

Additional observations from a re-analysis of the deposited data

How the results depend on the processing

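At a detection level of 5 TPM, 4 of the 10 genes were detected in place of 7. At other settings of levels (posterior mean, no mitochondrial genes, either library alone, mm9 RPKM, 0.5 TPM) the count stayed within 1.5 times. The log2 ratio of ligands to receptors, -1.11 on average, was -1.39 in mm9 RPKM and -2.10 in CPM, which is not divided by length. At a fold of 1.5, 2 genes (Ereg and Areg, both higher in replicate 2) in place of 0 passed between the libraries. Of all genes averaging 1 TPM or more, 3.99% passed that fold in that direction. With TMM or DESeq2 factors 0 of the 10 genes passed 2-fold. With no filter on the mean 0.704% of all genes passed 2-fold, against 1.58%. Unannotated junction reads fell to 0.245% when junctions under 5 reads were left out. Of the 9 neighbouring pairs, 8 had a mean log2 ratio in the order given, and the 2 pairs not told apart are named above. The size of some gaps moved: in mm9 RPKM the log2 ratio of Tgfa to Egfr was 0.35 in place of 0.83 and that of Ereg to Areg 0.52 in place of 0.23, and that of Egf to Erbb4, 0.94, was 0.16 in posterior means and 2.18 with a pseudocount of 0.1. The posterior mean of Erbb4 was 0.39 and 0.45 TPM, with most of it on transcripts with 0 counts. No paired analysis was possible because there is 1 group. With n = 2 the SD is itself poorly known, and depth limits Erbb4 and Areg most.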
